A study of Mus musculus with 20 samples.

Results

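The genes described here are the expressed members of the Zfp family of zinc finger genes of the mouse. A member is a protein-coding gene whose symbol is Zfp followed by digits alone, other than Zfp36 and Zfp42, and which stood at 1 RPKM or more (read density scaled by gene length and library size) in at least 1 of 4 chromatin RNA files. This rule found 135 genes of 343 protein-coding Zfp genes listed in those files, which list 15909 protein-coding genes in all. The members were thus chosen by their RPKM values, and their RPKM levels and ratios are a description and carry no test. The lowest members inside the threshold were Zfp362 (1.00 RPKM in its highest file), Zfp938 (1.00), Zfp53 (1.01) and Zfp652 (1.01), and the nearest genes outside were Zfp629 (0.997), Zfp758 (0.980), Zfp867 (0.979) and Zfp882 (0.978).

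Most Zfp genes encode proteins with arrays of C2H2 zinc fingers, each finger reading a few bases of DNA. Many of these proteins also carry a KRAB domain, which recruits TRIM28 (KAP1) and, through it, the histone methyltransferase SETDB1 and HP1 proteins, so that the bound DNA is silenced. In embryonic stem cells and the early embryo such KRAB zinc finger proteins are known for holding retroelements silent and for keeping DNA methylation at imprinted loci. The genes often lie in tandem clusters of close copies. Other members have no KRAB domain and act in pluripotency networks, lineage choice, splicing, translation or protein complexes.

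The study compared 4 kinds of C57BL/6 mouse sample: wild type embryonic stem cells (ESC WT), Mettl3 knockout embryonic stem cells (ESC KO), and cultures labelled cardiomyocyte of each genotype (CM WT and CM KO), grown through embryoid bodies and replated. METTL3 is the catalytic subunit of the nuclear complex that writes m6A, a methylated adenosine, on RNA. Each kind had 1 library of chromatin-associated RNA (ChrRNA-seq), 1 list of m6A positions in such RNA (Chrm6A-seq) and 3 ATAC-seq libraries, in which a transposase marks open chromatin. The number of knockout clones, the allele and the day of harvest are not stated in the sources read here, and nothing says that libraries of a kind came from separate cultures, so their spread may be technical. With 1 RNA library and 1 m6A list a kind, a difference in those assays cannot be set against a spread and gets no p-value. Where 4 values stand in a row with no library named, both stem cell libraries come first, wild type before knockout, and both cultures follow likewise.

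The 4 chromatin RNA libraries held an estimated 27900000 to 29800000 reads, and the ATAC lists held 70132 to 119307 intervals. Mettl3 was at 1.73 RPKM in wild type and 1.28 in knockout stem cells and at 1.18 and 1.07 in the respective cultures, so its chromatin RNA was present in the knockout libraries. The 8 cardiomyocyte markers summed to 0.829 and 0.833 RPKM in the stem cells, to 7.62 in wild type and 0.627 in knockout cultures, a sum that Ttn led in the stem cells (0.641 and 0.491 RPKM, against 0.140 in CM KO). Counted gene by gene, 7 of the 8 in CM WT and 5 in CM KO lay above both stem cell libraries. Of the defining genes of cardiac muscle, Tnnt2 was at 0 in both stem cell libraries, where a gene not listed was set to 0. It was at 0.742 RPKM in CM WT and 0.103 in CM KO, and Actc1 was at 1.90 and 0.0962 RPKM in CM WT and CM KO. The ESC list (7 of 8 markers listed) summed to 65.7, 62.5, 8.22 and 14.2 RPKM. Markers of fibroblasts (5 genes; 0.184, 0.253, 28.5 and 8.42), endoderm (4 genes; 0.0383, 0.0527, 13.4 and 5.10) and embryonic blood (4 genes; 0.118, 0.0941, 40.8 and 45.5) summed higher in both CM cultures. The sum for neural cells (3 of 4 listed; 5.05, 3.79, 1.85 and 1.58) was led by Stmn2, and 2 of the 3 genes were below both stem cell libraries in each culture while Nes was above them. The part of this change in cell types in the results below was not tested, and fewer cells of a type cannot be told apart from less RNA per cell.

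Zfp chromatin RNA was highest in the stem cells. Of the 135 members, 121 reached 1 RPKM in wild type stem cells, 104 in knockout stem cells, 80 in wild type cultures and 97 in knockout cultures. Over all protein-coding genes, 4270, 3741, 3640 and 4098 reached it in the same order of libraries. Summed over members, the level was 283 RPKM in wild type stem cells, 238 in knockout stem cells, 180 in wild type cultures and 212 in knockout cultures, with medians of 1.64, 1.44, 1.11 and 1.32. Most members were thus low, and a handful were several times above the median. Zfp57, which keeps methylation at imprinting control regions, was the highest member in ESC WT at 11.7 RPKM, followed by Zfp207, a factor of mitosis and stem cells, at 10.4 and Zfp281, a regulator of the exit from pluripotency, at 6.49. In CM WT the order was led by Zfp791 (7.28 RPKM), Zfp207 (7.16) and Zfp266 (3.77). The members lay on 20 chromosomes, with 32 on chromosome 7, 15 on chromosome 4 and 14 on chromosome 17, and 45 of them fell into 10 clusters of at least 3 members with gaps of at most 500 kb. The genes of 51 members share bases with another gene, and reads from such a pair may be shared out differently by another count.

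**Figure D1:**
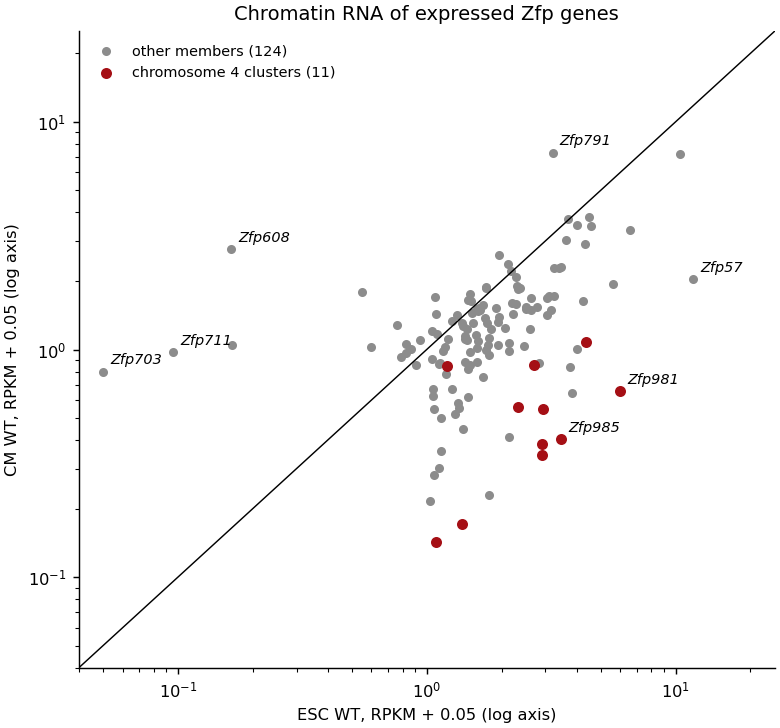
Chromatin RNA of each of the 135 members in CM WT (vertical) against ESC WT (horizontal), 1 library each, as RPKM + 0.05 on log axes, with the line of equal level. Red points are the 11 members of the chromosome 4 clusters, all below the line; Zfp608 is the member farthest above it among those named.

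Wild type cultures were compared with wild type stem cells to ask how the family changes on differentiation. A gene was called higher or lower where the log2 ratio of RPKM + 1 was at least 1 or at most -1, among genes at 1 RPKM or more in either library. Adding 1 RPKM understates the change of low genes. Of 127 members in this filter, 1 was higher and 18 were lower in CM WT, while of 5000 protein-coding genes in the same filter 3.56% were higher and 4.62% lower. The share of members called lower was 14.2%. The median log2 ratio was -0.36 over members and -0.25 over protein-coding genes, and 82.7% of members and 70.8% of protein-coding genes lay below 0. The rule shaped this contrast, since 47 members were below 1 RPKM in CM WT and entered through the stem cells, against 6 that entered through CM WT. Among the 74 members at 1 RPKM or more in both, 0 were higher and 4 lower (5.41%), beside 4.16% lower among 2910 protein-coding genes. After scaling the libraries to a median ratio of 0 over protein-coding genes, 4 members were higher and 13 lower (3.15% and 10.2%, beside 6.46% and 2.34% of protein-coding genes). With 0.1 added in place of 1 RPKM, 4 were higher and 34 lower (3.15% and 26.8%, beside 8.54% and 15.5%).

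Among members with roles in retroelement and imprint control, 7 of 8 were in the filter, 0 were higher, 3 were lower and the median log2 ratio was -0.78. Of protein-coding genes in the same filter, 4.62% were lower, and their median was -0.25. Zfp57 stood at 11.7 RPKM in wild type stem cells, 9.07 in knockout stem cells, 1.99 in wild type cultures and 2.49 in knockout cultures. Both stem cell libraries were above both CM libraries, and the ratio of CM WT to ESC WT was 0.169 (95% interval 0.154 to 0.185 from estimated reads, counting error only). Zfp445, a second gene known to guard imprints, differed far less, at 3.97 and 3.76 RPKM in wild type and knockout stem cells and 3.47 and 4.29 RPKM in the cultures. Zfp809, which silences murine leukaemia virus through its primer binding site, stood at 2.40, 1.31, 0.984 and 0.912 RPKM in the same order. Zfp568, a repressor of a placental Igf2 transcript, was at 2.99, 3.28, 1.63 and 1.72, high in both stem cell libraries. The other 2 of the list called lower, Zfp981 and Zfp600, lie in the chromosome 4 clusters described below. At 0.605 and 0.121 RPKM in CM WT, both entered the filter through ESC WT, and the rule selects their low ratios.

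The 7 members with roles in pluripotency and self-renewal all had a log2 ratio below 0 in CM WT against ESC WT, between -0.80 and -0.14, as did 70.8% of protein-coding genes, and 0 were called. After scaling, 5 of the 7 lay below 0, and Zfp148 (0.10) and Zfp217 (0.11) lay above it. Zfp281 stood at 6.49 RPKM in wild type stem cells, 5.75 in knockout stem cells, 3.29 in wild type cultures and 5.25 in knockout cultures, so the CM WT library was the low one. Zfp296, a factor used in reprogramming, was at 1.02, 0.908, 0.232 and 0.259 RPKM in the same order, low in both CM libraries. Zfp296 reached 1 RPKM in ESC WT alone, so its low ratio is what the rule selects. Zfp462, a large chromatin-associated zinc finger protein, was at 4.28, 3.32, 2.85 and 2.77.

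Few members were higher in the cultures. Zfp608 stood at 0.114 RPKM in wild type stem cells, 0.102 in knockout stem cells, 2.71 in wild type cultures and 2.32 in knockout cultures. Both CM libraries were above both stem cell libraries, and the ratio of CM WT to ESC WT was 23.8 (95% interval 21.3 to 26.7, counting error only). Zfp516, a factor of brown fat genes, was at 0.502, 0.456, 1.74 and 1.86 RPKM. Zfp703, a transcriptional corepressor, was at 0 in both stem cell libraries, where a gene not listed was set to 0. It was at 0.750 and 1.03 RPKM in CM WT and CM KO. Zfp711, an X-linked partner of the histone demethylase PHF8, was at 0.0455, 0.112, 0.921 and 2.36 RPKM, highest in CM KO. Zfp608, Zfp516, Zfp703 and Zfp711 were below 1 RPKM in both stem cell libraries. They became members through the cultures, so their high levels there are what the rule selects. Zfp703 and Zfp711 were below 1 RPKM in CM WT too and lay outside the filter of CM WT against ESC WT. Zfp791 was at 3.16, 5.06, 7.28 and 5.42 RPKM, with the ESC WT library the lowest of the 4.

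Many of the 18 members lower in CM WT were neighbours on the genome. Of them, 9 were among the 11 members of a pair of neighbouring clusters on distal chromosome 4, and 3 (Zfp977, Zfp936 and Zfp141) were in a cluster on chromosome 7. The first chromosome 4 cluster (build GRCm38.p6, positions 145510759 to 146539395) holds Zfp990, Zfp980, Zfp600, Zfp992 and Zfp981, and the other (147443114 to 147849126) holds Zfp982, Zfp985, Zfp979, Zfp534, Zfp984 and Zfp933. KRAB zinc finger genes of this stretch are known to repress retroelements in mouse stem cells. Of the 11, 10 were below 1 RPKM in CM WT and so became members, and entered the filter, through the stem cells, and their low ratios are what the rule selects. As a description, all 11 had a log2 ratio below 0, with a median of -1.37. With 1 RPKM required in both libraries only Zfp992 was left, and it was lower. The count of lower members was 7 after scaling, 10 with 0.1 added, and 3 of 5 among those that overlap no other gene. Genes of such clusters are often close copies of each other, though the gene sequences of these 11 were not compared. How the authors counted reads that match several copies is not stated in the sources read here, so the level of a single copy is uncertain. Zfp980, Zfp981, Zfp982, Zfp600, Zfp979 and Zfp992 also overlap other annotated genes.

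Zfp981 stood at 5.92 RPKM in wild type stem cells, 3.26 in knockout stem cells, 0.605 in wild type cultures and 0.547 in knockout cultures. Zfp985 was at 3.43, 1.88, 0.356 and 0.409 RPKM in the same order. Zfp980 was at 2.86, 1.41, 0.295 and 0.280. In each of these genes the ESC WT library was highest, ESC KO lay between, and both CM libraries were low. The ratio of CM WT to ESC WT was 0.102 for Zfp981 (95% interval 0.0941 to 0.111), 0.104 for Zfp985 (0.0924 to 0.116) and 0.103 for Zfp980 (0.0911 to 0.116), counting error only. Zfp992 was at 4.30, 2.71, 1.03 and 0.825 RPKM and was the single chromosome 4 member at 1 RPKM or more in CM WT. Zfp933, at the far end of the stretch, was at 1.15, 0.697, 0.793 and 0.731 RPKM and differed least of the 11 between ESC WT and CM WT. Summed over the 11, the level was 30.7 RPKM in wild type stem cells, 19.2 in knockout stem cells, 5.44 in wild type cultures and 5.82 in knockout cultures.

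The chromosome 7 cluster (42473386 to 43618279) holds 7 members, of which 5 were in the filter of CM WT against ESC WT, 3 were lower and the median log2 ratio was -1.06. Zfp977 was at 3.79, 2.33, 0.591 and 0.903 RPKM, Zfp936 at 1.73, 1.05, 0.180 and 0.315 and Zfp141 at 2.79, 1.72, 0.819 and 1.02. The ESC WT library was the highest in each of these 3 genes and ESC KO the next. All 3 were below 1 RPKM in CM WT and entered the filter through ESC WT, so their low ratios are what the rule selects. The medians of the other 7 clusters lay between -0.61 and -0.06. The remaining lower members besides Zfp57 were Zfp808, Zfp459, Zfp229, Zfp532 and Zfp654. The first 3 of these were also below 1 RPKM in CM WT and entered through ESC WT. Zfp459 was at 3.95, 2.90, 0.951 and 1.89 RPKM and Zfp654 at 4.21, 2.67, 1.59 and 2.33, with CM WT the lowest library in both. Zfp229 was at 2.09, 1.27, 0.362 and 0.489 RPKM, low in both cultures.

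**Figure D2:**
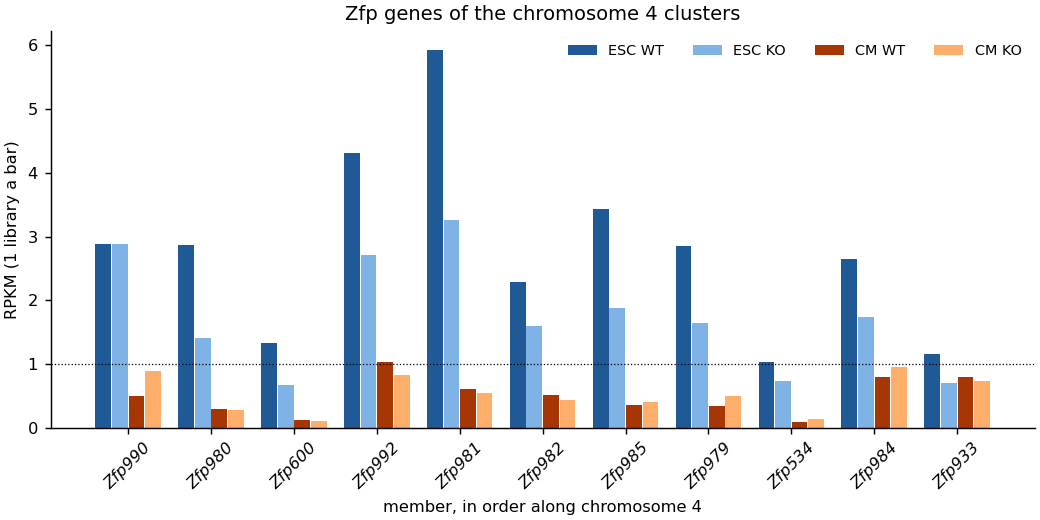
RPKM of the 11 members of the chromosome 4 clusters, in order along the chromosome, in 1 library each of the 4 kinds of sample; the dotted line marks 1 RPKM. ESC WT is the highest bar for every gene but Zfp990, where ESC WT (2.88) and ESC KO (2.89) are level.

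Promoters of the chromosome 4 genes are shown because 7 of those with an entry are near copies. Of the 135 members, 108 have an entry in the RefSeq promoter table (GRCm38.p6), and of the 11 chromosome 4 members 9 do. Over the 250 bases before the start, 7 of the 9 (Zfp534, Zfp600, Zfp979, Zfp980, Zfp981, Zfp984 and Zfp985) aligned to one another at 80.0% to 98.4% identity, with Zfp600 and Zfp979 the closest pair at 98.4% over 244 bases. All 7 hold the stretch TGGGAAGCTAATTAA, the longest they share. It is present in 11 of 17492 protein-coding promoters, on either strand, and the other 4 (Gm13212, Rex2, Zfp987 and Zfp988) lie on chromosome 4 as well. In 6 of the 7, all but Zfp534, a CCAAT box read on the other strand (ATTGG) runs into a GC box (GGGCGG) as ATTGGGCGG, which 63 of 17492 promoters hold (0.360%). These motifs were chosen after the sequences were seen. The 200 bases before the start follow for 5 of the related promoters and for Zfp982, a chromosome 4 member outside the related group. Capitals mark the shared stretch, CCAAT on either strand and GGGCGG on either strand.
Zfp600, chr4:146156627-146156826, plus strand: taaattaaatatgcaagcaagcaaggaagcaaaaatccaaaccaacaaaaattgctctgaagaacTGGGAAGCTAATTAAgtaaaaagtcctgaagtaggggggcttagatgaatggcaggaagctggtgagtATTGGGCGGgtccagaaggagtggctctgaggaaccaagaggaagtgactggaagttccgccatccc
Zfp979, chr4:147642509-147642708, minus strand: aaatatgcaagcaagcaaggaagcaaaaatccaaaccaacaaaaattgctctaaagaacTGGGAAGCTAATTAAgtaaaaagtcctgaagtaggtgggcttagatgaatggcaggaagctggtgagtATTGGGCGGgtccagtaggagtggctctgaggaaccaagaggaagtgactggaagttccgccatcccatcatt
Zfp980, chr4:145670497-145670696, plus strand: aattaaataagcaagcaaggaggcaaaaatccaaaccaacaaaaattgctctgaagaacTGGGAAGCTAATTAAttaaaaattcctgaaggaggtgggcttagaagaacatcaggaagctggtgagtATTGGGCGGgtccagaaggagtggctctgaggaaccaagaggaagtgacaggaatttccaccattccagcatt
Zfp981, chr4:146514720-146514919, plus strand: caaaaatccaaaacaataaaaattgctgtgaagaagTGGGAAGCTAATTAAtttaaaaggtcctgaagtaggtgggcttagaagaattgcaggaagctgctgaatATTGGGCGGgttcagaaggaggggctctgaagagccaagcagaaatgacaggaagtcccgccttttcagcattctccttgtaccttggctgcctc
Zfp985, chr4:147553077-147553276, plus strand: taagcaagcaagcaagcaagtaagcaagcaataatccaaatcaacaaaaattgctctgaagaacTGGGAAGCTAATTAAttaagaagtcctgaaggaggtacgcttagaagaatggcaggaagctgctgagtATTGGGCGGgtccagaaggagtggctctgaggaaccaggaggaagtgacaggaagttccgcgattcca
Zfp982, chr4:147442914-147443113, plus strand: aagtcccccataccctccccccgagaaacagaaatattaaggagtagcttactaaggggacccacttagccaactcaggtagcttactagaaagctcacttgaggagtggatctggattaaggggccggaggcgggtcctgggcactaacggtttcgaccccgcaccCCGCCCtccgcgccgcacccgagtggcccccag

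A CCAAT box on either strand was present in the 250 bases before the start of 8 of the 9 chromosome 4 members, of 55.6% of the 108 members with an entry, of 37.3% of 4165 other expressed protein-coding genes and of 36.5% of all 17492 promoters. A GC box was present in 7 of the 9, in 49.1% of members, in 64.8% of other expressed genes and in 42.7% of all. The median number of CpG pairs was 3 in the chromosome 4 members, 11 in the other 99 members and 18 in other expressed genes. The ETS core CCGGAAG was present in 19.4% of members and 18.2% of other expressed genes, and in 0 of the 9 chromosome 4 members, where no match speaks only of these letters in this window. The 4 genes outside the member list that hold the shared stretch were read the same way. Rex2 stood at 0.522 RPKM in wild type stem cells, 0.286 in knockout stem cells, 0.0594 in wild type cultures and 0.0473 in knockout cultures, Zfp987 at 0.417, 0.291, 0.0336 and 0.0514, Gm13212 at 1.03, 0.604, 0.356 and 0.374, and Zfp988 was not listed.

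Knockout and wild type stem cells were compared to ask whether loss of Mettl3 changes Zfp RNA before differentiation. Of 123 members in the filter, 0 were higher and 0 were lower in ESC KO, and of 4396 protein-coding genes 0.0910% were higher and 0.114% lower. No p-value can be given. The median log2 ratio was -0.13 over members and -0.10 over protein-coding genes, with 78.0% of members and 73.3% of protein-coding genes below 0. The chromosome 4 members, singled out after their values were seen, lay lower than the rest. All 11 were at 1 RPKM or more in ESC WT, and 8 in ESC KO. The same ESC WT library stands in the comparison with CM WT, so a high value there lowers both ratios. Of the 11, 10 had a log2 ratio below 0, all but Zfp990 (2.88 RPKM in ESC WT and 2.89 in ESC KO), and their median was -0.48, beside -0.12 over the other 112 members in the filter. After scaling, 10 of the 11 still lay below 0, with a median of -0.40. The ratio of ESC KO to ESC WT was 0.550 for Zfp981 (95% interval 0.528 to 0.574), 0.547 for Zfp985 (0.515 to 0.581) and 0.494 for Zfp980 (0.462 to 0.527), counting error only.

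Outside chromosome 4 the lowest ratio was that of Zfp423, a cofactor of SMAD and EBF proteins in lineage choice, at 1.64 RPKM in wild type stem cells, 0.502 in knockout stem cells, 0.710 in wild type cultures and 1.00 in knockout cultures. The ESC WT library was the high one, and the ratio of ESC KO to ESC WT was 0.306 (95% interval 0.296 to 0.317, counting error only). Zfp423 was below 1 RPKM in ESC KO and entered this filter through ESC WT, so its low ratio is what the rule selects. Zfp808 was at 3.71, 1.84, 0.786 and 1.03 RPKM, and Zfp532, a partner of the ZMYND8 complex, at 5.55, 3.09, 1.88 and 1.81. In both genes the ESC WT library was above the other 3. The highest ratios in ESC KO belonged to Zfp791 (3.16 RPKM in ESC WT and 5.06 in ESC KO), Zfp59 (1.30 and 2.12) and Zfp819 (0.981 and 1.61), which entered the filter through ESC KO. These differences were under the 2-fold threshold on the scale with 1 RPKM added.

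**Figure D3:**
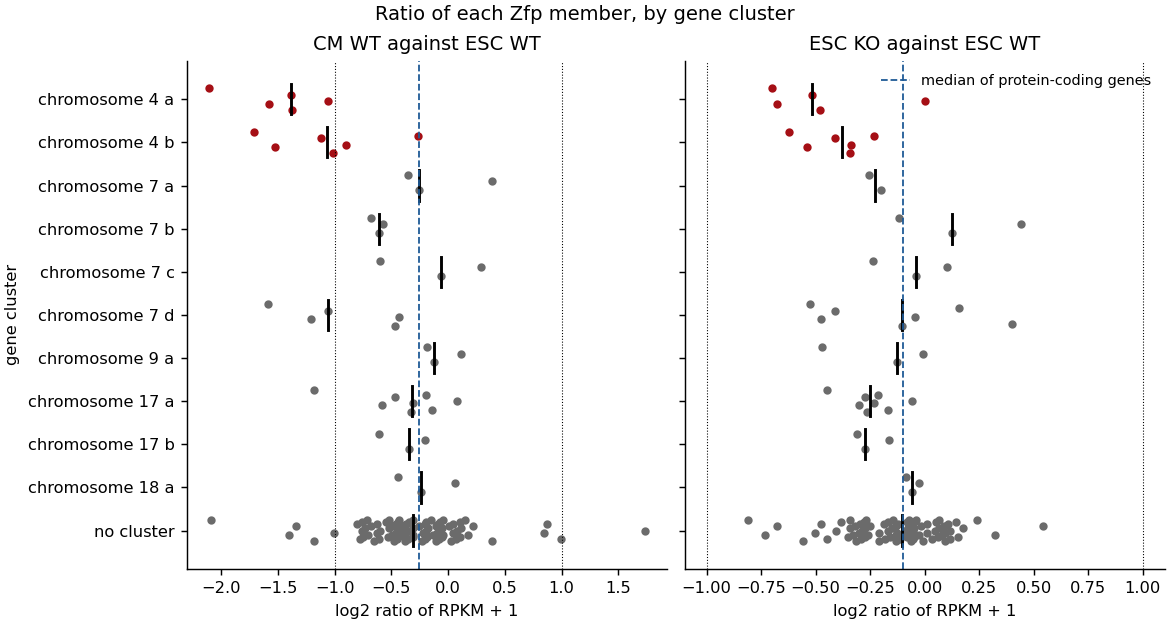
Log2 ratio of RPKM + 1 of each member in the filter, by gene cluster, for CM WT against ESC WT (left) and ESC KO against ESC WT (right), 1 library a group; black ticks are cluster medians, the dashed line the median of protein-coding genes and dotted lines the thresholds of -1 and 1. Both comparisons share the ESC WT library. The red chromosome 4 members lie left of the dashed line in both panels, apart from Zfp990 on the right.

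Knockout cultures were set against knockout stem cells. Of 120 members in the filter, 3 were higher and 6 lower in CM KO, and of 4667 protein-coding genes 3.58% were higher and 1.61% lower. The medians were -0.05 over members and -0.03 over protein-coding genes. The 3 higher members were Zfp711, Zfp608 and Zfp703, none of which reached 1 RPKM in ESC KO, so their high ratios are what the rule selects. The 6 lower members were Zfp57, Zfp981, Zfp819, Zfp990, Zfp985 and Zfp992, of which 4 are in the chromosome 4 clusters. The ratio of CM KO to ESC KO was 0.275 for Zfp57 (95% interval 0.253 to 0.299) and 0.168 for Zfp981 (0.154 to 0.183), counting error only. The 8 chromosome 4 members in this filter all had a log2 ratio below 0, with a median of -0.97. All 8 were below 1 RPKM in CM KO and entered the filter through ESC KO, so their low ratios are what the rule selects. Of the 6 lower members, only Zfp57 (2.49 RPKM) reached 1 RPKM in CM KO. With 1 RPKM required in both libraries, 0 of 81 members were higher and 1 was lower. Of 3172 protein-coding genes at that setting, 30 were higher and 38 lower.

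Between CM KO and CM WT, 0 of 100 members in the filter were higher and 0 lower, and of 4367 protein-coding genes 0.183% were higher and 0.595% lower. The median log2 ratio was 0.13 over members and 0.12 over protein-coding genes, so the median member lay near the median gene. The highest ratio was that of Zfp711, at 0.921 RPKM in CM WT and 2.36 in CM KO (ratio 2.56, 95% interval 2.37 to 2.76). Zfp459 (0.951 and 1.89 RPKM) and Zfp281 (3.29 and 5.25) followed, and the lowest ratios were those of Zfp791 (7.28 and 5.42) and Zfp740 (2.26 and 1.80). Zfp711 and Zfp459 were below 1 RPKM in CM WT and entered this filter through CM KO, where they are high. Whether the ratio between genotypes differs between stem cells and cultures was not tested, since each kind had 1 library.

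Members with roles in RNA processing, translation and protein complexes gave few calls. Of 15, 14 were in the filter of CM WT against ESC WT, 0 were higher and 1 was lower (Zfp532), beside 4.62% lower among protein-coding genes. The median log2 ratio there was -0.21, beside -0.25 over protein-coding genes. The median was 0.06 in ESC KO against ESC WT, beside -0.10 over protein-coding genes, and 0.18 in CM KO against CM WT, beside 0.12, with 0 called in each. Zfp207 stood at 10.4, 11.6, 7.16 and 9.94 RPKM in the same order. Zfp598, the ubiquitin ligase that marks collided ribosomes, was at 1.16, 1.30, 1.06 and 0.926, and Zfp326, which couples elongation and splicing, at 1.45, 1.18, 1.71 and 2.15. Zfp410, known as an activator of Chd4, was at 1.05, 1.12, 1.12 and 1.45.

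The partners of KRAB zinc finger proteins were read from a list of 18 genes. In CM WT against ESC WT, 17 were in the filter, 0 were higher and 1 was lower, with a median log2 ratio of -0.46. Of protein-coding genes in that filter 4.62% were lower, and their median was -0.25. The lower partner was Trim28, the corepressor that KRAB domains bind. It was at 20.6 RPKM in wild type stem cells, 18.4 in knockout stem cells, 9.12 in wild type cultures and 9.23 in knockout cultures. In ESC KO against ESC WT, in CM KO against ESC KO and in CM KO against CM WT, 0 of 17, 16 and 15 partners were called. Other zinc finger families were read in the same way. Of 12 Zbtb genes in the filter of CM WT against ESC WT 0 were called, with a median of -0.30, and of 6 Zscan and Zkscan genes 1 was lower, with a median of -0.21. The difference between these families and the Zfp members was not tested.

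Open chromatin at the members was measured as the number of ATAC intervals in the gene plus 2 kb on each side. Over all members this gave 582, 545 and 538 intervals in wild type and 553, 532 and 544 in knockout stem cells. The wild type cultures held 418, 456 and 411 and the knockout cultures 369, 400 and 379. The means were 555 ± 23.6, 543 ± 10.5, 428 ± 24.2 and 383 ± 15.8 (SD, n = 3 each). The stem cell libraries did not overlap with the CM libraries. The lists as a whole were shorter in the cultures too, with means of 112503, 114635, 88791 and 73177 intervals. Per 1000 intervals of a library, the members held 4.94 ± 0.0763, 4.74 ± 0.0657, 4.82 ± 0.0168 and 5.23 ± 0.0360 (SD, n = 3), so the share was highest in CM KO.

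A member was called as having more or fewer intervals where all 3 libraries of a group lay on the same side of all 3 of the other. This is the exact permutation test at its smallest two-sided p of 0.1, which cannot pass 0.05. In CM WT against ESC WT, 1 of the 135 members had more intervals and 32 fewer, and of 18069 protein-coding genes 4.31% had more and 24.6% fewer. The member with more was Zfp865, at 5, 4 and 4 intervals in CM WT and 2, 3 and 2 in ESC WT. In CM KO against ESC KO, 0 had more and 36 fewer, beside 0.670% and 32.0% of protein-coding genes. In ESC KO against ESC WT, 6 had more (Zfp148, Zfp292, Zfp445, Zfp507, Zfp638 and Zfp655) and 6 fewer (Zfp219, Zfp459, Zfp936, Zfp951, Zfp977 and Zfp982), beside 3.67% and 2.91%. Between CM KO and CM WT, 2 had more and 7 fewer, beside 1.33% and 10.2%. The shares of members were thus near or below those of all genes in the comparisons of cultures with stem cells. With the same number of intervals taken from every library (70132), the counts of more and fewer were 5 and 16, 10 and 8, 2 and 2, and 6 and 5 in the 4 comparisons in that order. In CM WT against ESC WT these were 3.70% and 11.9% of members, beside 8.97% and 9.96% of genes, and in CM KO against ESC KO 7.41% and 5.93%, beside 5.70% and 5.36%, so that members were no longer below all genes in fewer, or in more in the knockout. Between ESC KO and ESC WT they were 1.48% each, beside 2.57% and 2.81%, and between CM KO and CM WT 4.44% and 3.70%, beside 4.70% and 4.39%.

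Leaving out 1 library loosens the rule and moved several of these counts. In CM WT against ESC WT the count of more was 3 without CM WT replicate 1 or ESC WT replicate 2 and 2 without CM WT replicate 2 or 3. Of protein-coding genes, 5.05% to 6.20% had more at these settings. For CM KO against ESC KO the count of more was 4 without CM KO replicate 3, beside 1.05% of protein-coding genes. It was 1 without CM KO replicate 2 or ESC KO replicate 3, beside 1.08% and 0.996%. For ESC KO against ESC WT the count of fewer was 12 without ESC KO replicate 3 and 13 without ESC WT replicate 3. For CM KO against CM WT the count of fewer was 11 without any 1 CM KO replicate, beside 12.4% to 14.3% of protein-coding genes. It was 13 without CM WT replicate 3, beside 15.0%. The count of more was 5 without CM KO replicate 1 or 3, beside 2.91% and 2.46%, and 4 without CM WT replicate 2, beside 2.51%.

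In CM KO against CM WT, 3 of the 11 chromosome 4 members had fewer intervals, beside 4 of the other 124 members. Of protein-coding genes 10.2% had fewer there. In CM WT against ESC WT, 3 of the 11 had fewer (Zfp980, Zfp984 and Zfp990), beside 29 of the 124 and 24.6% of genes. In CM KO against ESC KO, 5 of the 11 had fewer, Zfp984 among them, beside 31 of the 124 and 32.0%. Zfp982 held 7, 7 and 8 intervals in wild type and 6, 5 and 4 in knockout stem cells, and 8, 7 and 6 in wild type and 2, 1 and 1 in knockout cultures. Zfp985 held 5, 4 and 3, then 3, 3 and 3, then 4, 3 and 2, and 0, 1 and 1 in the same order, and Zfp981 held 4, 4 and 5, then 4, 4 and 4, then 3, 4 and 3, and 2, 2 and 1. In all 3 genes the CM KO libraries lay below all CM WT and all ESC KO libraries. With equal numbers of intervals, Zfp982 (6, 5 and 5 in CM WT; 2, 1 and 1 in CM KO) and Zfp985 (2, 2 and 2; 0, 1 and 1) kept this order against CM WT, and Zfp981 (2, 1 and 3; 2, 2 and 1) did not. Against ESC KO only Zfp985 (2, 2 and 2 there) kept it, since Zfp982 (2, 1 and 2) and Zfp981 (2, 2 and 2) overlapped, while Zfp992 had more intervals in CM KO (3, 3 and 2) than in ESC KO (0, 1 and 1). Zfp980 held 2, 3 and 2 intervals in ESC WT, 1, 1 and 2 in ESC KO and 0 in all 6 CM libraries. Of the 7 members with fewer intervals in CM KO than in CM WT, Zfp981, Zfp982 and Zfp985 are on chromosome 4, and the other 4 are Zfp646, Zfp704, Zfp809 and Zfp961. How reads that match several copies were treated is not stated, so the interval numbers of single chromosome 4 genes are uncertain.

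**Figure D4:**
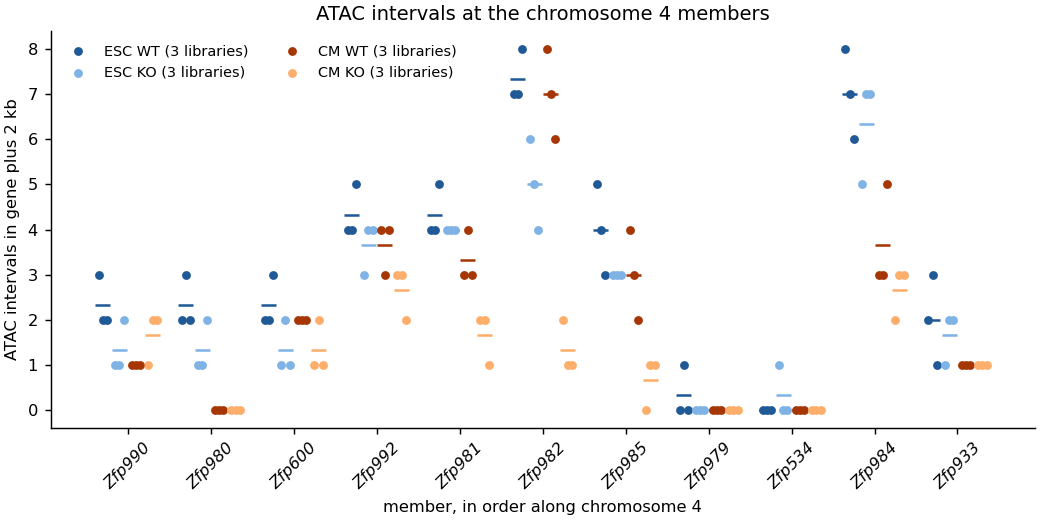
Number of ATAC intervals in the gene plus 2 kb for the 11 chromosome 4 members, in order along the chromosome; each point is 1 library, 3 a group, and short lines are group means. CM KO points lie below all CM WT points at Zfp981, Zfp982 and Zfp985, and Zfp980 is at 0 in all CM libraries.

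Intervals of all libraries that shared a base were merged, giving 827 regions in the members. A region was called opened where every library of the first group had it and none of the other, and closed in the reverse case. In CM WT against ESC WT, 19 regions of members opened and 79 closed (2.30% and 9.55%), beside 5.09% and 10.7% of 114798 regions in protein-coding genes. Between CM KO and ESC KO, 4 opened and 77 closed, beside 0.791% and 9.24%. In ESC KO against ESC WT, 6 opened and 10 closed, beside 1.08% and 1.26%, and in CM KO against CM WT, 3 opened and 19 closed, beside 0.626% and 3.39%. The share of member regions that closed was thus near or below that of all regions, and the share that opened was below it, with all intervals. With equal numbers of intervals, 26 of 563 opened and 41 closed in CM WT against ESC WT (4.62% and 7.28%, beside 7.08% opened and 6.996% closed of all regions) and 12 opened and 17 closed in CM KO against ESC KO (2.13% and 3.02%, beside 2.63% and 3.55%). In ESC KO against ESC WT 2 opened and 8 closed (0.355% and 1.42%, beside 1.02% and 1.27%). In CM KO against CM WT 13 opened and 12 closed (2.31% and 2.13%, beside 1.80% and 2.76%), so there the opened share was above that of all regions. Without 1 library, the opened regions ranged from 4 to 9 in CM KO against ESC KO, with 9 without CM KO replicate 1 and 7 without CM KO replicate 2 or 3.

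Between ESC KO and ESC WT, the opened regions were 11, 12 and 14 without ESC KO replicate 1, 2 and 3 and 13 without ESC WT replicate 1, and the closed regions were 19 without ESC KO replicate 3 and 20 without ESC WT replicate 3. Between CM KO and CM WT, 7, 8 and 9 regions of members opened without CM KO replicate 1, 2 and 3, and 6, 7 and 5 opened without CM WT replicate 1, 2 and 3. There the closed regions were 30 and 29 without CM WT replicate 1 and 3. Shares over all regions were not computed without 1 library.

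Some members with many intervals changed in several regions. Zfp704 held 33, 24 and 26 intervals in wild type and 25, 29 and 27 in knockout stem cells, and 17, 19 and 16 in wild type and 10, 11 and 10 in knockout cultures. The CM KO libraries lay below all others, and 7 of its regions closed in CM WT against ESC WT and 10 in CM KO against ESC KO. Zfp423 held 39, 35 and 37 intervals in ESC WT and 27, 35 and 24 in CM WT, which overlap, and 34, 31 and 36 in ESC KO and 28, 25 and 27 in CM KO, which do not. With equal numbers of intervals the mean difference between CM KO and ESC KO turned round, to 4 more in CM KO for Zfp423 and 3 more for Zfp462. Zfp827 held 18 in each ESC WT library, 22, 21 and 17 in ESC KO, 14 in each CM WT library and 10, 14 and 10 in CM KO. Zfp462 had 3 regions opened and 2 closed in CM WT against ESC WT, and 0 opened and 3 closed in CM KO against ESC KO. In the stem cells, Zfp638, which silences unintegrated retroviral DNA, held 5, 5 and 6 intervals in ESC WT and 10, 8 and 9 in ESC KO, without overlap, but the groups overlapped with equal numbers of intervals. The same was so of Zfp827 in CM WT against ESC WT.

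Most members with a promoter entry had an open start in every sample. Of the 108 members with a promoter entry, 99 (91.7%) had an interval over the 300 bases around a start in all 12 libraries, beside 94.7% of 4273 expressed protein-coding genes. Where a gene had several entries, an interval over any of them counted. There were 6 members with an interval there in no library (5.56%, beside 1.57%): Zfp534, Zfp600, Zfp979, Zfp980, Zfp626 and Zfp652. The first 4 are chromosome 4 members whose promoters are printed above or align to them, while Zfp981, with 86.9% identity to Zfp600 over 221 bases, had an interval in all 12 libraries and Zfp985 in 10. How the authors treated reads that match several copies is not stated in the sources read here, so a closed start cannot be told apart from reads left out. Zfp423 had an interval at a start in 6 libraries and Zfp984 in 10.

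The m6A lists give a gene, a position and a motif of 4 bases, AC preceded by a pair of purines. Positions were read as counted from the 5′ start of the gene along its unspliced length. The origin was checked only near starts, where the motif matched at 100 of 214 positions, and the unspliced count was not tested beyond finding 1182 of the 1200 distinct positions within the gene's length. The members held 553 distinct positions on the ESC WT list, 630 on ESC KO, 667 on CM WT and 462 on CM KO. The knockout lists were thus not emptied at these genes, and the ESC KO list held more than the ESC WT list. The lists as a whole held 16983, 18076, 25617 and 13962 positions, and the depth behind them is unknown. Of the 135 members, 127 had a position on at least 1 list, 94 on all 4, and 8 (Zfp296, Zfp346, Zfp367, Zfp428, Zfp444, Zfp512, Zfp787 and Zfp938) on none.

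Members carried listed positions more often than protein-coding genes at the same RPKM threshold, in these 4 lists. Among members at 1 RPKM or more in the matching RNA library, 83.5% had a position in wild type and 92.3% in knockout stem cells, and 93.8% and 86.6% in the respective cultures, beside 72.8%, 76.9%, 85.6% and 65.9% of protein-coding genes. Per kilobase of gene the members held 0.132, 0.182, 0.189 and 0.121 positions, beside 0.0744, 0.0905, 0.0895 and 0.0521. The share of GGAC among distinct positions was 22.9% in members and 30.9% in other protein-coding genes, and that of AAAC was 27.2% and 20.7%. With each gene cut into 5 equal parts on that reading, the members' positions lay in the last part in 41.9% of cases and in the first part in 10.3%, while in other genes these shares were 42.5% and 18.7%. These values describe 4 lists of 1 library each.

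**Figure D5:**
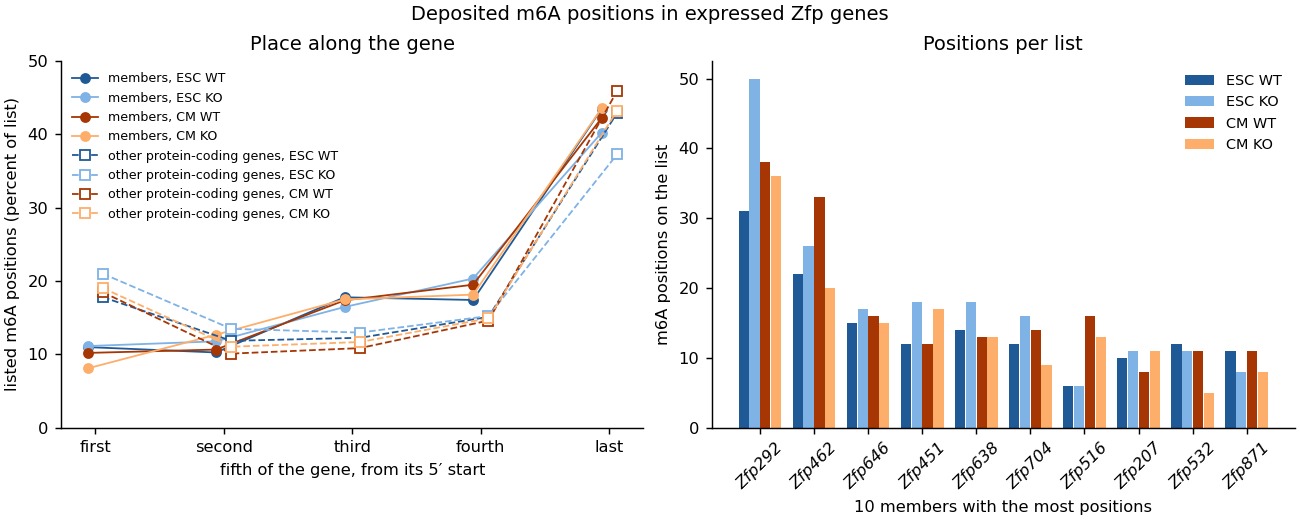
Left, percent of listed m6A positions in each of 5 equal parts of the gene from its 5′ start, for members (filled) and other protein-coding genes (open), on each of the 4 lists; right, positions on each list for the 10 members with the most. Members have a smaller percent of their positions in the first part of the gene than other genes on all 4 lists, and Zfp292 has the most positions, 50 of them on the ESC KO list.

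Most members were on both lists of a comparison, at 80.3%, 75.8%, 82.9% and 86.0% of those in the filter for CM WT against ESC WT, CM KO against ESC KO, ESC KO against ESC WT and CM KO against CM WT, beside 64.7%, 56.1%, 67.0% and 64.5% of protein-coding genes. In CM WT against ESC WT, 14 of 127 members had positions on the CM WT list only and 0 on the ESC WT list only, beside 14.8% and 4.14% of protein-coding genes. In CM KO against ESC KO, 7 of 120 members were on the CM KO list only and 13 on the ESC KO list only, beside 6.28% and 15.4%. Between the stem cell genotypes, 8 of 123 were on the ESC KO list only and 1, Zfp423, on the ESC WT list only, beside 6.76% and 5.44%. Between the cultures, 0 of 100 were on the CM KO list only and 9 (Zfp626, Zfp672, Zfp622, Zfp771, Zfp105, Zfp873, Zfp706, Zfp992 and Zfp408) on the CM WT list only, beside 0.641% and 19.3%. The chromosome 4 members held 40 positions in wild type and 49 in knockout stem cells, and 17 and 7 in the respective cultures, and their RNA was lower in the cultures as well. The other 124 members held 513, 581, 650 and 455.

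Zfp292, which encodes a large zinc finger protein, held 31 positions in wild type and 50 in knockout stem cells, and 38 and 36 in the respective cultures, at 4.52, 4.94, 3.44 and 4.14 RPKM. It had the most positions of any member on each of the 4 lists, and 55 of its 74 distinct positions lay in the last of 5 equal parts of the gene. Zfp462 held 22, 26, 33 and 20, and Zfp451, a SUMO ligase, 12, 18, 12 and 17. Zfp516 held 6, 6, 16 and 13, and its RNA was higher in the cultures too. Zfp981 held 12, 10, 1 and 0 positions, and Zfp990, at 2.88 and 2.89 RPKM in the stem cells, 2, 9, 6 and 3.

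Of the 1200 distinct positions in members, 153 were on all 4 lists, 51 on both wild type lists only and 30 on both knockout lists only. Single lists alone held 138 and 172 in wild type and knockout stem cells and 180 and 77 in the cultures. Most positions were thus not shared by all lists. For a position close enough to the start, the sequence can be read in the promoter table. In members, the listed motif was in place at 3 of 10 such positions. It was not in place in Zfp330, Zfp414, Zfp91 or Zfp958, whose table start is the annotated 5′ end itself. The exact base of a listed position in members is thus uncertain. Of the 3 matches, the 2 whose table start lies within 200 bases of the annotated 5′ end are printed. Both were counted from the table start, which lies 29 bases from the annotated 5′ end in Zfp672 and 175 in Zfp945. Counted from the annotated end, the listed positions fall on other bases than those printed. The 4-base motif is in capitals (RefSeq, GRCm38.p6, minus strand).
Zfp672, chr11:58330291-58330312: tgctaacaaAAACgaagtcgtt
Zfp945, chr17:22867109-22867130: ttccctgaaGAACtcagggagc

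The Zfp672 position was on the ESC KO and CM WT lists, and that of Zfp945 on both stem cell lists. Neither was on the CM KO list.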

How the data were processed

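Chromatin RNA was read from 4 deposited RPKM files, which the authors made per gene and library. ATAC intervals came from 12 lists in MACS2's narrowPeak layout, called per library, where the deposited score, fold enrichment and −log10 p and q values are the authors' own (lowest −log10 q 1.30) and only the −log10 q was used, to rank or filter. The 4 m6A lists give a gene, a position and a motif, and their caller and filters are unknown here. Per the submitters' processing notes, the tools were HISAT2, MACS2, Bowtie, Picard and cutadapt and the build was mm10, with no role stated for any. The label of CM KO replicate 3 of ATAC-seq gives RNA as its molecule, but its file is an interval list and was used as such.

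Depth was inferred from the steps between low values, of which 54.2% to 56.5% came within 0.05 of whole reads, so read numbers and the 95% Clopper-Pearson intervals of ratios are approximate and cover counting error only. RNA was compared as log2(RPKM + 1), which understates low genes, with a threshold of 2-fold and at least 1 RPKM in either library. ATAC used exact permutation of 3 against 3 libraries. Python 3.11.15, numpy 2.4.6, pandas 2.3.3, scipy 1.17.1, matplotlib 3.10.9 and Biopython 1.88 were used, and the counting steps were tested on simulated data. Promoters are from RefSeq (GRCm38.p6).

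Members, role lists and alternatives were chosen with earlier results of these data known. Named members were the 6 highest and 6 lowest ratios in each RNA comparison, the 8 highest levels in ESC WT and CM WT, the 10 with most m6A positions, the 8 with most changed regions, and the role lists. Chromosome 4 members, and others outside these, were singled out after their values were seen. Replicate numbers do not pair libraries.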

Additional observations from a re-analysis of the deposited data

How the results depend on the processing

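Of 218 alternatives of the counts, 137 stayed within 1.5 times the reported count, and the other 81 follow, those without 1 library as ranges. For chromatin RNA, adding 0.1 in place of 1 RPKM gave 4 higher and 34 lower members in CM WT against ESC WT, 6 and 13 in CM KO against ESC KO, 1 lower in ESC KO against ESC WT and 1 higher in CM KO against CM WT. Requiring 1 RPKM in both libraries gave 0 and 4 in CM WT against ESC WT and 0 and 1 in CM KO against ESC KO, and with 0.01 added as well 8 lower, then 0 and 1, and 2 lower in ESC KO against ESC WT. Scaling gave 4 higher in CM WT, and members that overlap no other gene gave 0 higher and 6 lower there.

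For ATAC intervals, more and fewer with equal interval numbers were 5 and 16, 10 and 8, 2 and 2, and 6 and 5 in CM WT against ESC WT, CM KO against ESC KO, ESC KO against ESC WT and CM KO against CM WT. A flank of 10 kb gave 0 more in CM WT against ESC WT, 1 more in CM KO against ESC KO and 11 fewer in CM KO against CM WT, and no flank gave 2 more and 1 more in CM WT against ESC WT and CM KO against CM WT. A −log10 q of at least 3 gave 3 more and 10 fewer in ESC KO against ESC WT and 4 more in CM KO against CM WT. With equal numbers, regions closed were 41 in CM WT against ESC WT, opened and closed 12 and 17 in CM KO against ESC KO, opened 2 in ESC KO against ESC WT, and opened and closed 13 and 12 in CM KO against CM WT. Same-numbered libraries did not deviate together (correlations of -0.0285 to 0.0185), and pairing them as a replicate block gave 3 more in CM WT against ESC WT and 3 more and 11 fewer in CM KO against CM WT, where same-signed pairs are a looser rule.

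Without 1 library, members with more ranged from 1 to 3 in CM WT against ESC WT, 0 to 4 in CM KO against ESC KO and 2 to 5 in CM KO against CM WT, and members with fewer from 6 to 13 in ESC KO against ESC WT and 9 to 13 in CM KO against CM WT. Shares of protein-coding genes with more ranged from 4.92% to 6.20%, 0.935% to 1.18% and 2.18% to 2.91% in that order. Those with fewer ranged from 4.08% to 6.09% and 12.1% to 15.0%. Regions opened ranged from 4 to 9, 8 to 14 and 5 to 9 in CM KO against ESC KO, ESC KO against ESC WT and CM KO against CM WT, and regions closed from 12 to 20 and 24 to 30 in the last 2. For m6A, members that overlap no other gene gave 8 on the CM WT list only against ESC WT, 8 on the ESC KO list only against CM KO, 3 and 0 on the ESC KO and ESC WT lists only, and 5 on the CM WT list only against CM KO. At least 2 positions gave 5, 3 and 3 for CM WT against ESC WT, ESC KO against ESC WT and CM WT against CM KO.

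Of 566 alternatives for single members, 258 stayed as reported, 251 moved, 50 lost the separation of groups and 7 turned direction. Scaling also changed the sign of 29 of 208 log2 ratios, all under the threshold, 11 of them in CM WT against ESC WT, where none of the 11 was larger in size than 0.31 before scaling. The 7 were mean differences in intervals: with equal numbers Zfp532 (0.333) and Zfp703 (0.333) in CM WT against ESC WT and Zfp423 (4), Zfp462 (3), Zfp516 (2) and Zfp532 (1.67) in CM KO against ESC KO, and with the stricter −log10 q Zfp148 (-1.67) in ESC KO against ESC WT. The causes were not tested. The strand alternative for m6A was not run, since positions already follow the gene's strand. RNA and m6A have 1 library a group, and the depth behind the m6A and ATAC lists is unknown.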
